A study of Mus musculus with 8 samples.

Results

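The genes examined here move glutamate and its precursor glutamine: the vesicular glutamate transporters Slc17a6, Slc17a7 and Slc17a8, the glutamine carriers Slc38a1 and Slc38a2, and the glutamate carrier Slc1a1. They were taken as every probe set of the array whose only gene symbol in the platform annotation is one of these 6 names, which gave 11 probe sets of 45101. The 11 belong to 5 genes, since no probe set carries the symbol Slc17a8, and 8 of them passed the filter on low values (a linear value of 50, or 5.64 on the log2 scale, on at least 4 arrays). The arrays compare 4 immunoprecipitates with 4 unbound fractions of adult mouse diencephalon, that is thalamus and hypothalamus dissected together. Translating ribosome affinity purification (TRAP) pulls down ribosomes that carry a tag expressed from a transgene in a chosen cell type, here from a bacterial artificial chromosome in the line Hcrt JD218, named for the hypocretin gene. The immunoprecipitate holds the RNA on those ribosomes, and the unbound fraction of the same preparation stands for the whole tissue. All mice carried the transgene, were 6 to 12 weeks old, of both sexes and of a mixed Fvb and c57/bl6j background, and 5 were pooled for each preparation. The arrays include no control precipitate of transgene-free mice.

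Vesicular glutamate transporters load glutamate into synaptic vesicles, driven by the gradient that the vacuolar proton pump builds, and a neuron that expresses one of them can release glutamate. Slc17a6 (VGLUT2) prevails in thalamus, hypothalamus and brainstem, Slc17a7 (VGLUT1) in cortex and hippocampus, and Slc17a8 (VGLUT3) in scattered neurons that often use another transmitter as well. Released glutamate is taken up mostly by astrocytes, turned into glutamine and handed back to neurons, where system A carriers such as Slc38a1 and Slc38a2 take it in. Slc1a1 (EAAC1) is the glutamate and cysteine carrier of neuronal membranes. Hypocretin neurons are known as excitatory cells that contain Slc17a6.

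Hcrt itself was higher in every immunoprecipitate, by 5.02 on the log2 scale (SE 0.25, 32.5-fold, limma adjusted p = 6.5e-07), which is the check of the purification. The share of probe sets that reached 50 was 33.6% to 34.8% for the precipitates and 40.5% to 40.9% for the unbound fractions. The 2 groups were normalized apart by the authors and set on a common scale through hybridisation controls. On that scale the median of all 17865 tested probe sets was -0.87 (log2, immunoprecipitate minus unbound), so a value near -0.87 is what a typical probe set showed. In bulk samples such as these, fewer cells of a type and less RNA per cell cannot be told apart. The fractions differ both in the cells they come from and in whether the RNA was on ribosomes.

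Slc17a6 was 1.62-fold lower in the hypocretin neuron precipitates by its brighter probe set, and by the other its mean change was 0.01 with an interval that spans 2-fold both ways. Slc17a7 was below 50 in every precipitate, and the carriers Slc38a1, Slc38a2 and Slc1a1 were 2.50- to 4.51-fold lower by their brighter probe sets. The other Slc38a1 probe set was 1.70-fold lower, overlapped between the groups and was not called. Of the 8 tested member probe sets 5 were called lower and 0 higher by limma (adjusted p under 0.05 and at least 2-fold). Over the whole array 45.1% of probe sets were called lower and 4.88% higher. At an unadjusted p under 0.05, limma gave 7 lower and 0 higher of the 8 members. The share of the whole array at that cut was not counted, so these counts have no background to be read against. The fractions did not overlap for 5 of the 8, where all precipitates lay below all unbound fractions, as they did for 50.1% of all tested probe sets. The shares of members called and not overlapping are thus near those of the array, and the members are described one by one.

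**Figure D1:**
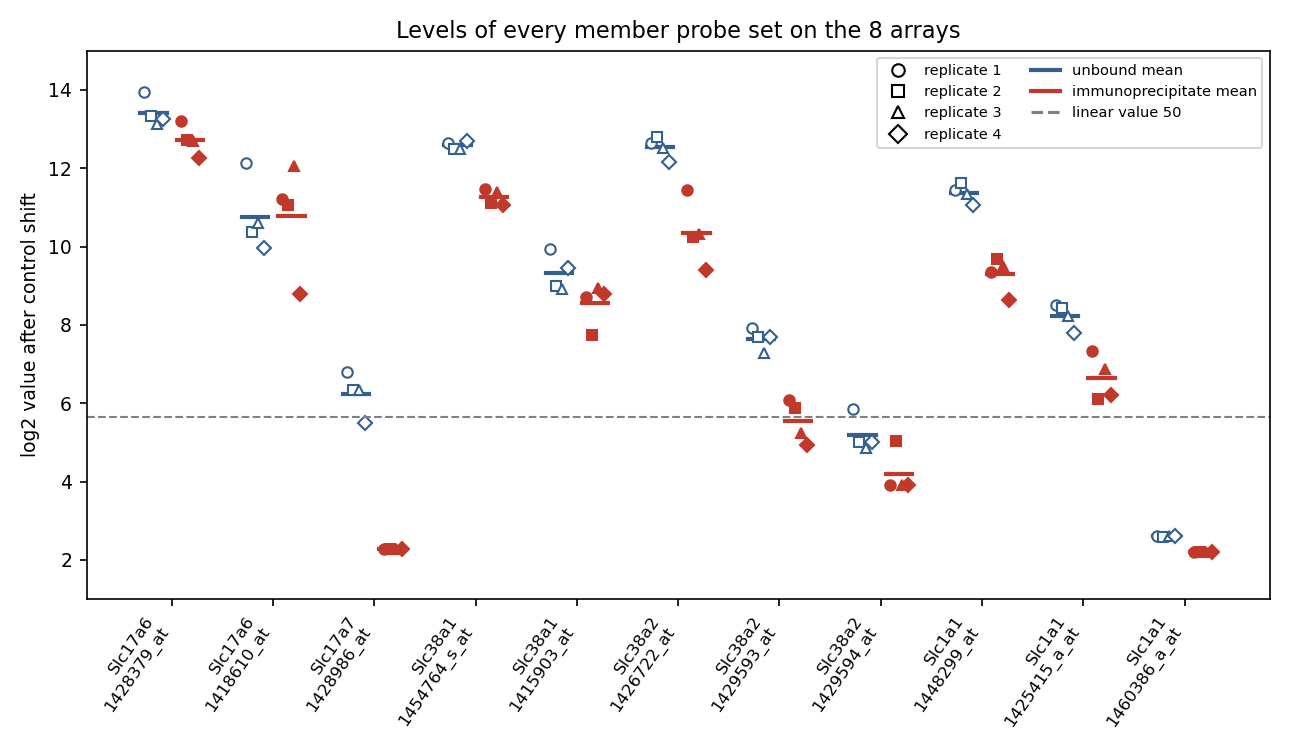
Log2 values (vertical axis, after the shift on hybridisation controls) of the 11 member probe sets (horizontal axis) on each array, open blue symbols for unbound fractions and filled red ones for immunoprecipitates, with a symbol shape per replicate and a bar for each group mean. The Slc17a6 groups overlap for both probe sets, Slc17a7 lies near the lowest value of the array in every precipitate, and the dashed line marks the linear value 50 below which a value is not taken as measured.

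Slc17a6, the transporter of subcortical glutamate neurons, was read by a pair of probe sets. The brighter one, 1428379_at, stood at 13.21, 12.73, 12.70 and 12.27 in immunoprecipitates 1 to 4 and at 13.95, 13.34, 13.12 and 13.26 in the matching unbound fractions (log2 values). Immunoprecipitate 1 lay above unbound fraction 3, so the groups overlap, but the precipitate was the lower fraction in 4 of 4 preparations. The mean was 12.73 ± 0.38 against 13.42 ± 0.36 (SD, n = 4 each), a log2 change of -0.69 (SE 0.23, 95% interval -1.21 to -0.17, limma adjusted p = 0.025). This is 1.62-fold lower and short of the 2-fold set for a call. It lay 0.18 above the median probe set, and 55.5% of all tested probe sets had a lower change. In this fit without a block the value depended on single arrays. It was -0.33 without unbound replicate 1 (limma adjusted p = 0.22) and -0.44 without immunoprecipitate replicate 4 (limma adjusted p = 0.12). Its adjusted p by limma was 0.074 without immunoprecipitate replicate 2. Within preparations 1 to 4 the change was -0.74, -0.61, -0.43 and -0.99. Leaving out whole preparations gave -0.96 to -0.50 (limma adjusted p from 0.016 to 0.12). With the preparation as a block the limma adjusted p was 0.0011, still short of 2-fold.

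The second Slc17a6 probe set, 1418610_at, stood at 11.20, 11.05, 12.07 and 8.78 in immunoprecipitates 1 to 4. In the unbound fractions it stood at 12.12, 10.37, 10.60 and 9.97. The precipitate was higher in 2 preparations and lower in 2, and the groups overlap almost fully. The means were 10.78 ± 1.41 and 10.77 ± 0.94 (SD, n = 4 each), a log2 change of 0.01 (95% interval -1.49 to 1.51, limma adjusted p = 0.99), so that neither a 2-fold rise nor a 2-fold fall lies outside the interval. Within an array, the difference between the 2 probe sets shifted by 0.70 towards 1418610_at in the precipitates (exact permutation test, two-sided, p = 0.37, and 0.50 adjusted over 4 pairs of probe sets of 1 gene). Preparation 4 was the lowest for this probe set in both fractions. The same preparation had the largest 3' minus 5' signal of Gapdh, a measure of RNA integrity. That difference was 4.50 in its precipitate against 2.12 to 2.31 in the others, and 3.36 in its unbound fraction against 1.94 to 2.08. For Actb preparation 4 stood out less. Its precipitate had 4.11 against 3.14 to 4.05 in the others, and its unbound fraction 3.80 against 3.01 to 3.45. The mean level of 9 thalamic neuron markers without Slc17a6 was also lowest in preparation 4. It was 7.43 in that precipitate against 8.73 to 9.18 in the others, and 10.31 in its unbound fraction against 10.76 to 11.17. Astrocyte and microglia markers were lowest there in both fractions too. GABAergic markers were lowest in its precipitate (7.56) but highest in its unbound fraction (11.24). The parts of RNA integrity and of tissue content in the result were not tested. Between the groups the 3' minus 5' signal differed by 0.46 for Gapdh and 0.32 for Actb (exact permutation test, two-sided, p = 0.46 and 0.31, both 0.46 adjusted over the 2 genes).

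Slc17a7, the vesicular transporter of cortical and hippocampal neurons, was read by 1 probe set, 1428986_at. It stood at 2.27 in all 4 precipitates, near the lowest value of the array. In the unbound fractions it stood at 6.80, 6.34, 6.34 and 5.50, of which 3 of 4 reach the linear value 50. No precipitate came near an unbound fraction. Because it reached 50 on fewer than 4 arrays, it was outside the tested set, and its fold is a bound: the tissue signal was at least 1.53-fold higher, measured against 50 in the precipitates. That bound holds on the scale of the hybridisation controls, and it keeps the unbound value of 5.50, itself under 50, as it stood. Median centring moves the median probe set up by 0.81 on the log2 scale, which is more than this bound. No bound was computed on the other scales. Markers of cortical and hippocampal excitatory neurons, of which 4 of 5 listed besides Slc17a7 have a probe set, were also lower on average in each preparation. Their mean level ran from 4.09 to 7.19 in the unbound fractions and from 2.53 to 4.72 in the precipitates, and 0 of the 4 reached 50 in every precipitate. Much of this lies under the linear value 50 (5.64), including the unbound means of preparations 1 and 4 (4.53 and 4.09). Emx1 was below 50 on every array, and only 1 of the list, Neurod6, passed the filter. Neurod6, a transcription factor of those neurons, stood at 5.92, 10.83, 9.99 and 2.49 in the unbound fractions and at 3.56, 8.27, 6.60 and 2.75 in the precipitates. It was highest in preparations 2 and 3, while Slc17a7 was highest in preparation 1, and its part in the Slc17a7 result was not tested. Neurod6 itself was not called (limma adjusted p = 0.35), though with the preparation as a block it was called lower (limma adjusted p = 0.0088).

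Slc38a1 (SNAT1), a glutamine carrier of neurons, was lower in the precipitates. Its brighter probe set, 1454764_s_at, stood at 11.47, 11.12, 11.40 and 11.05 in the precipitates and at 12.64, 12.50, 12.49 and 12.70 in the unbound fractions. Every precipitate lay below every unbound fraction, and the arrays of a group lay close together. It fell by 1.32 on the log2 scale (SE 0.16, 2.50-fold, limma adjusted p = 7.9e-05), lower in 4 of 4 preparations. Of all tested probe sets 36.4% had a lower change. The ending of this probe set's name marks probes that can read transcripts of more than 1 gene. The other probe set, 1415903_at, overlapped between the groups (8.72, 7.74, 8.95 and 8.78 against 9.93, 8.99, 8.91 and 9.45). Its change was -0.77 (SE 0.34, limma adjusted p = 0.068), and it was lower in 3 of 4 preparations. Without unbound replicate 3 it was called lower, at -1.06 (limma adjusted p = 0.029).

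Slc38a2 (SNAT2), the related carrier that cells raise when amino acids run short, had the lowest mean change of the 4 tested genes. Probe set 1426722_at stood at 11.45, 10.24, 10.33 and 9.40 in the precipitates and at 12.65, 12.79, 12.52 and 12.16 in the unbound fractions. The groups do not overlap, and precipitate 1 was the closest to the tissue. It fell by 2.17 on the log2 scale (SE 0.37, 4.51-fold, limma adjusted p = 0.00058), lower in 4 of 4 preparations. Of all tested probe sets 17.7% had a lower change. Probe set 1429593_at gave -2.11 (SE 0.31, limma adjusted p = 0.00023). Only 2 of its 4 precipitates reached 50, so its fold is given as at least 3.57. A further probe set, 1429594_at, reached 50 on 1 unbound array and on 0 precipitates and gives no fold.

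Slc1a1 (EAAC1), the glutamate and cysteine carrier of neurons, was lower to a similar extent. Probe set 1448299_at stood at 9.36, 9.69, 9.49 and 8.63 in the precipitates and at 11.44, 11.62, 11.34 and 11.06 in the unbound fractions. The gap between the groups was wider than the spread within either. It fell by 2.07 on the log2 scale (SE 0.26, 4.20-fold, limma adjusted p = 9.1e-05), and 19.6% of all tested probe sets had a lower change. Probe set 1425415_a_at fell by 1.61 (SE 0.33, 3.05-fold, limma adjusted p = 0.0017), with precipitates from 6.11 to 7.32 and unbound fractions from 7.78 to 8.51. Both were lower in 4 of 4 preparations. The last, 1460386_a_at, was below 50 on all 8 arrays. Between probe sets of the same gene the within-array shift was 0.55 for Slc38a1, 0.06 for Slc38a2 and 0.46 for Slc1a1 (exact permutation test, two-sided, p = 0.14, 0.77 and 0.20, and 0.40, 0.77 and 0.40 adjusted over the 4 pairs).

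The sequences before the transcription starts are shown for Slc17a6 and Slc17a7, the vesicular transporters of which 1 was measured in the precipitates and the other was not above 50 there, and for Slc38a2 and Slc1a1, whose changes were -2.17 and -2.07. They are the 250 bases before the start in RefSeq, build GRCm38.p6, 5′ to 3′ on the strand of the gene. Of the 6 genes 5 have an entry, and Slc17a6 has 2, of which the first is printed. The positions are chr7:51621580-51621829 (plus strand) for Slc17a6, chr7:45163671-45163920 (plus strand) for Slc17a7, chr15:96699729-96699978 (minus strand) for Slc38a2 and chr19:28834885-28835134 (plus strand) for Slc1a1. Capitals mark the GC box, GGGCGG on either strand.
Slc17a6: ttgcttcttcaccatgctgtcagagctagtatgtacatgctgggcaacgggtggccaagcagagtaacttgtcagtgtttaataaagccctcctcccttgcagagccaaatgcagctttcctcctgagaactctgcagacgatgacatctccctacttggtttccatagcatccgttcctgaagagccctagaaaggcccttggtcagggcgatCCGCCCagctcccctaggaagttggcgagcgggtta
Slc17a7: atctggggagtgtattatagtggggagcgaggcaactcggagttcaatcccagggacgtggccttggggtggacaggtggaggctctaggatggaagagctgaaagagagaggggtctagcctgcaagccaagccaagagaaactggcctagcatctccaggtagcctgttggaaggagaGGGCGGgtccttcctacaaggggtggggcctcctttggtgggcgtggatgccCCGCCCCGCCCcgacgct
Slc38a2: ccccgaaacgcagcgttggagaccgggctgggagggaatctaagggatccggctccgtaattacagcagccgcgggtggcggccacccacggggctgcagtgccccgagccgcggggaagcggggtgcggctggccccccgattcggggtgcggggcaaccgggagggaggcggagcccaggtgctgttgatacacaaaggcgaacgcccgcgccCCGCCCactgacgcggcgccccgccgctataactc
Slc1a1: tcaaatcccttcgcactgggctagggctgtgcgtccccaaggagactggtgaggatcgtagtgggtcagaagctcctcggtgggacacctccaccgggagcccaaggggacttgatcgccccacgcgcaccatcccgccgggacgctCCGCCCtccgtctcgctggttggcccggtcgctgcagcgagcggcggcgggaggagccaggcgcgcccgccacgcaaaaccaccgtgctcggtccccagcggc
The windows of Slc38a2 and Slc1a1 held 30 and 27 CpG dinucleotides, more than 94.1% and 91.4% of the 32851 RefSeq promoters. Those of Slc17a6 and Slc17a7 held 7 and 9, more than 53.7% and 59.7%. Slc17a7 had 3 GC boxes, with first bases at -70, -18 and -13 from the start, of which the last pair overlap by a base. Slc17a6, Slc38a2 and Slc1a1 had 1 each, at -36, -35 and -103. The window before the other Slc17a6 start, chr7:51624387-51624636 (plus strand), held 3 CpG and 0 GC boxes. A GC box was in 32.7% of all promoter windows of this length. The TATA box TATAAA (12.4% of windows), CCAAT (33.8%), the cAMP response element TGACGTCA (1.55%) and the E-box CACGTG (6.02%), searched on both strands, were in 0 of these 4 windows. In RefSeq of this build, no protein-coding gene lies between Slc38a1 and Slc38a2.

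Since the groups were normalized apart, the size of each change depends on how they are joined. Centring each array on its median moved the median probe set by 0.81 on the log2 scale, quantile normalization by 0.84 and the poly-A spike controls by -1.97. The brighter Slc17a6 probe set was -0.69 on the hybridisation controls (limma adjusted p = 0.025). Median centring gave 0.12 (limma adjusted p = 0.67), quantile normalization gave -0.44 (limma adjusted p = 0.16), and the poly-A spikes gave -2.66 (limma adjusted p = 1.3e-06), the 1 scale on which it was called. Relative to the median probe set of the same scale it was therefore above it on 3 scales and below it after quantile normalization. The brighter probe sets of Slc38a2 and Slc1a1 were called lower on all 4 scales, with changes of -1.36 and -1.26 after median centring and of -1.67 and -1.37 after quantile normalization. Their dimmer probe sets were less stable. Slc1a1 1425415_a_at was no longer called after median centring (-0.80, limma adjusted p = 0.056) or quantile normalization (-0.52, limma adjusted p = 0.19). Slc38a2 1429593_at was no longer called after quantile normalization (-0.88, short of 2-fold). Slc38a1 was -0.51 and -0.87 on those scales (limma adjusted p = 0.023 and 0.0019) and no longer reached 2-fold. No member probe set was called higher by limma on any of the 4 scales.

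**Figure D2:**
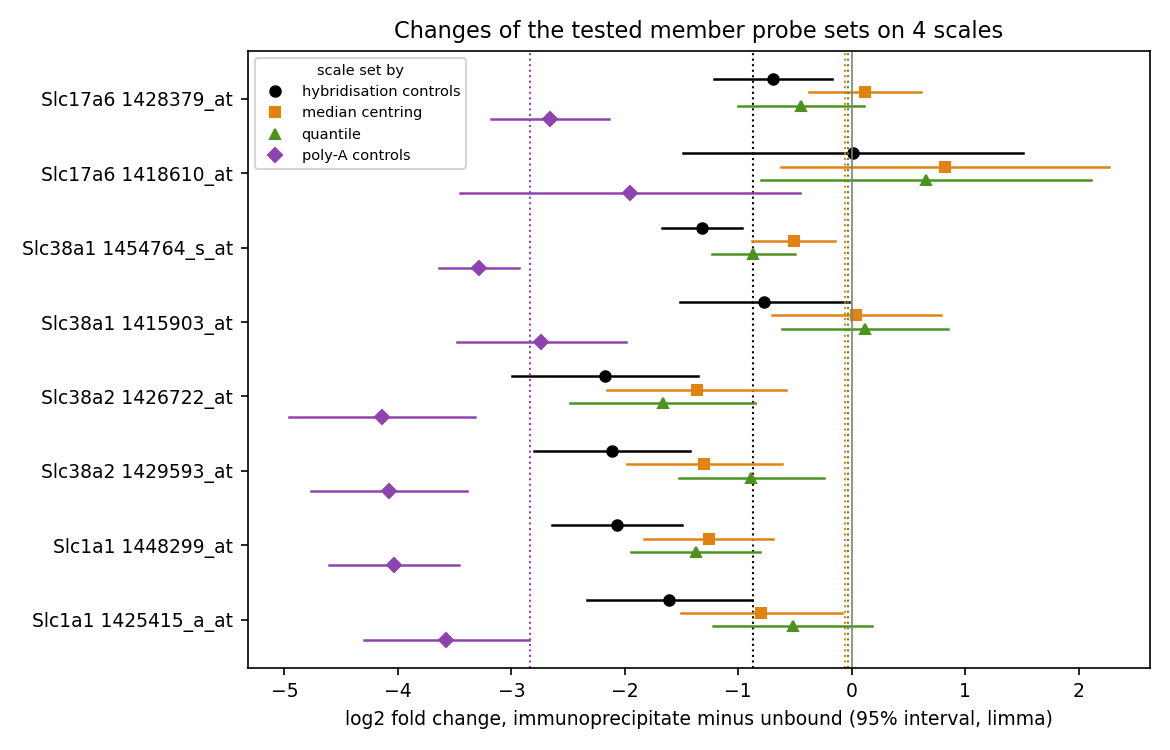
Log2 fold change with its 95% interval (horizontal axis, immunoprecipitate minus unbound, limma) of the 8 tested member probe sets (vertical axis) on 4 scales, with a dotted line for the median probe set of each scale. The Slc17a6 probe sets lie near or to the right of the median line except for 1428379_at after quantile normalization, and those of Slc38a2 and Slc1a1 lie to its left on each scale.

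A difference between 2 members on the same array is not moved by a scale that shifts whole arrays (3 of the 4 scales), so the 6 pairs of tested genes were compared that way. Slc17a6 minus Slc38a2 was 1.75, 2.49, 2.37 and 2.87 in the precipitates and 1.30, 0.54, 0.60 and 1.10 in the unbound fractions. Every precipitate lay above every unbound fraction. The shift was 1.48 on the log2 scale (exact permutation test, two-sided, p = 0.029, and 0.086 adjusted over the 6 pairs), in the same direction in 4 of 4 preparations. Slc17a6 minus Slc1a1 shifted by 1.38, from 2.05 ± 0.37 in the unbound fractions to 3.43 ± 0.37 in the precipitates (SD, n = 4 each, exact permutation p = 0.029, and 0.086 adjusted). Its shift within a preparation was 1.34, 1.32, 1.42 and 1.43. Those values lie closer together than the shifts of Slc17a6 minus Slc38a2, which ran from 0.46 to 1.94. Slc17a6 minus Slc38a1 shifted by 0.63 (exact permutation p = 0.086, and 0.10 adjusted). Slc38a1 shifted against Slc38a2 by 0.85 and against Slc1a1 by 0.75 (exact permutation p = 0.057 each, and 0.086 adjusted). Slc38a2 minus Slc1a1 shifted by -0.10, between -0.62 and 0.88 in the 4 preparations (exact permutation p = 0.80). With 4 arrays against 4 the smallest possible p is 0.029, and none of the 6 pairs passed 0.05 after adjustment.

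**Figure D3:**
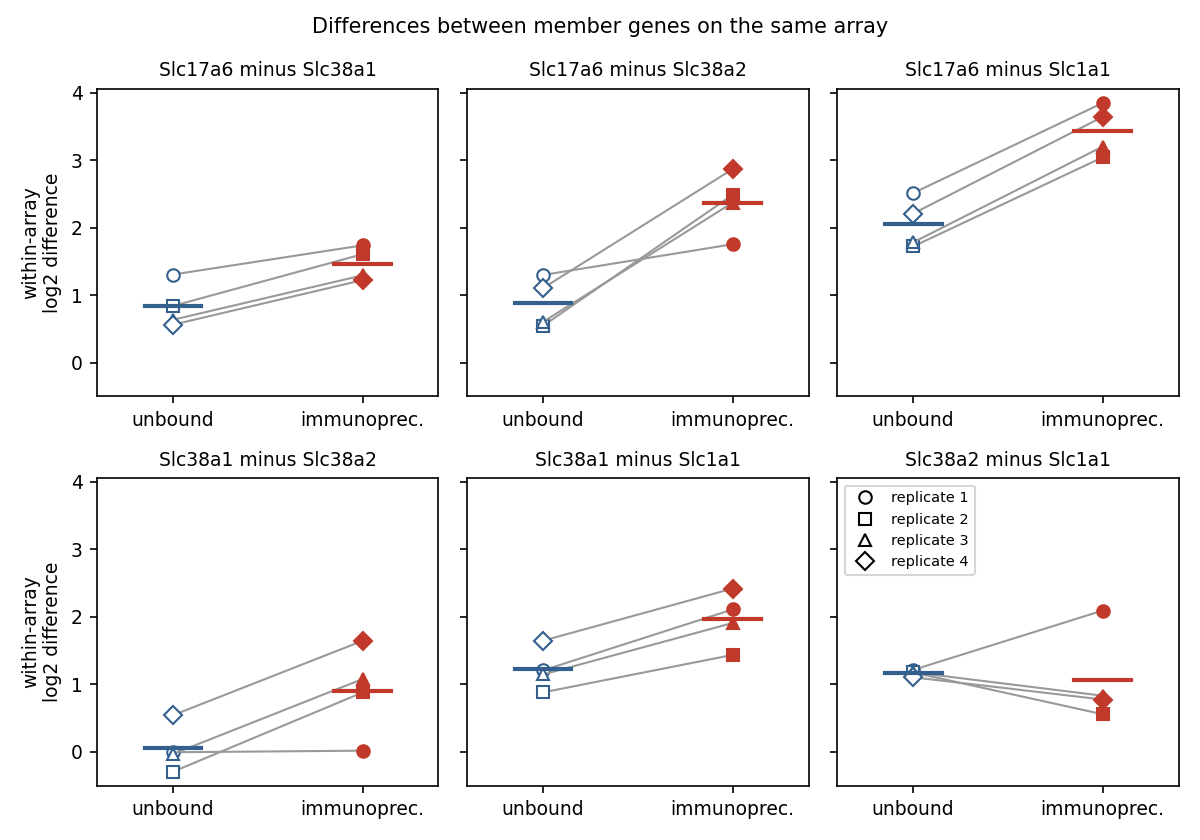
Difference between the log2 values of 2 member genes on the same array (vertical axis), for unbound fractions (open blue) and immunoprecipitates (filled red), with lines joining the fractions of a preparation and bars at the group means. Slc17a6 gained on Slc38a2 and Slc1a1 in all 4 preparations by 0.46 to 1.94, while Slc38a2 minus Slc1a1 moved up in 1 preparation and down in 3.

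Other genes that make, move and recycle glutamate were taken as lists. By gene, 44.2% of the 10398 tested genes were called lower and 4.74% higher, and the median gene changed by -0.85. Shares of all genes at an unadjusted p were not counted, so the unadjusted counts given for the lists have no such background. Of the enzymes of glutamate and glutamine 4 of 6 tested fell and 0 rose (5 and 0 at an unadjusted limma p under 0.05), with a list median of -1.65. The glutamine synthetase Glul, an astrocyte enzyme, fell 3.67-fold (limma adjusted p = 0.001) and the glutamate dehydrogenase Glud1 2.69-fold (limma adjusted p = 0.00035). The alanine transaminase Gpt2 fell 4.01-fold, and Gpt, under 50 in all 4 precipitates, was at least 3.76-fold lower. The aspartate transaminases Got1 and Got2, named after their values were seen, gave -0.56 and -0.94 (limma adjusted p = 0.15 and 0.0038) and did not reach 2-fold. Median centring left 3 of these genes lower, where it calls 22.2% of all genes lower and 17.5% higher. Quantile normalization left 4 lower (20.5% and 16.5% over all genes), and the poly-A spikes gave 6 lower (94.5% and 0.673%). On each scale 0 were higher.

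Among the other glutamate and neutral amino acid carriers of the cell surface 2 of 5 tested fell and 0 rose (2 and 1 at an unadjusted limma p under 0.05), with a median of -0.06. Both that fell are the astrocyte glutamate transporters: Slc1a2 (GLT-1) fell 7.52-fold and Slc1a3 (GLAST) 4.09-fold (limma adjusted p = 2.6e-05 and 0.00036). Slc1a6 (EAAT4), a neuronal glutamate transporter best known from Purkinje cells and named after its value was seen, was at 7.28, 7.33, 7.77 and 7.27 in the precipitates and at 6.28, 6.86, 6.91 and 7.12 in the unbound fractions. All precipitates lay above all unbound fractions, as for 6.85% of tested probe sets. Its change of 0.62 was not called (limma adjusted p = 0.061). With poly-A spikes setting the scale, it and the other 4 tested genes were all called lower. Median centring called 1 gene of the list higher and 2 lower, and quantile normalization 1 each way.

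Of the other SLC38 carriers 2 of 5 tested fell and 0 rose (2 and 0 at an unadjusted limma p under 0.05), with a median of -0.74, or -0.59 with genes under 50 at their bound. Slc38a3 (SN1), through which astrocytes release glutamine, stood at 2.22 in all 4 precipitates and at 6.18, 7.68, 8.03 and 6.01 in the unbound fractions, at least 2.53-fold lower. Slc38a6 was at least 4.68-fold lower, with 1 of 4 precipitates at or above 50. Median centring and quantile normalization gave the same counts, and with poly-A spikes all 5 were lower. Of the mitochondrial glutamate and aspartate carriers 1 of 3 fell and 0 rose, as under median centring and quantile normalization, while poly-A spikes gave all 3 lower (median -0.75, 2 and 0 at an unadjusted limma p under 0.05). That gene, Slc25a18, named after its value was seen, fell 3.59-fold. The neuronal aspartate-glutamate carrier Slc25a12 gave -0.75 (limma adjusted p = 0.031) and the glutamate carrier Slc25a22 -0.58 (limma adjusted p = 0.12), both short of 2-fold. Slc17a5 (sialin), the lysosomal relative of the vesicular transporters and the 1 tested of 6 other SLC17 genes, gave 0.09 (limma adjusted p = 0.81), was called higher under quantile normalization and lower with poly-A spikes.

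Of 4 vesicular transporters for other transmitters 2 were tested, and both were called lower. Slc32a1, the vesicular transporter of GABA and glycine, stood at 9.54, 9.95, 9.53 and 8.73 in the precipitates and at 11.14, 11.77, 11.96 and 11.99 in the unbound fractions. The groups do not overlap, and it fell 4.84-fold (limma adjusted p = 0.00012). Slc18a2, the vesicular monoamine transporter, was at least 4.45-fold lower, with 2 of 4 precipitates at or above 50 and groups that overlap (limma adjusted p = 0.015). Poly-A spikes gave both lower, and the other scales 1 of the 2. The vacuolar proton pump, which drives all of these carriers, had few calls: 2 of 17 tested subunits fell and 0 rose (10 and 1 at an unadjusted limma p under 0.05), with a list median of -0.45 against -0.85 for all genes. The catalytic subunit Atp6v1a fell 3.32-fold (limma adjusted p = 3.2e-05) and Atp6v0a2 2.46-fold (limma adjusted p = 0.0064). The direction of the list depended on the scale, since median centring gave 2 higher and 0 lower, quantile normalization 0 and 1, and poly-A spikes 0 and 17.

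**Figure D4:**
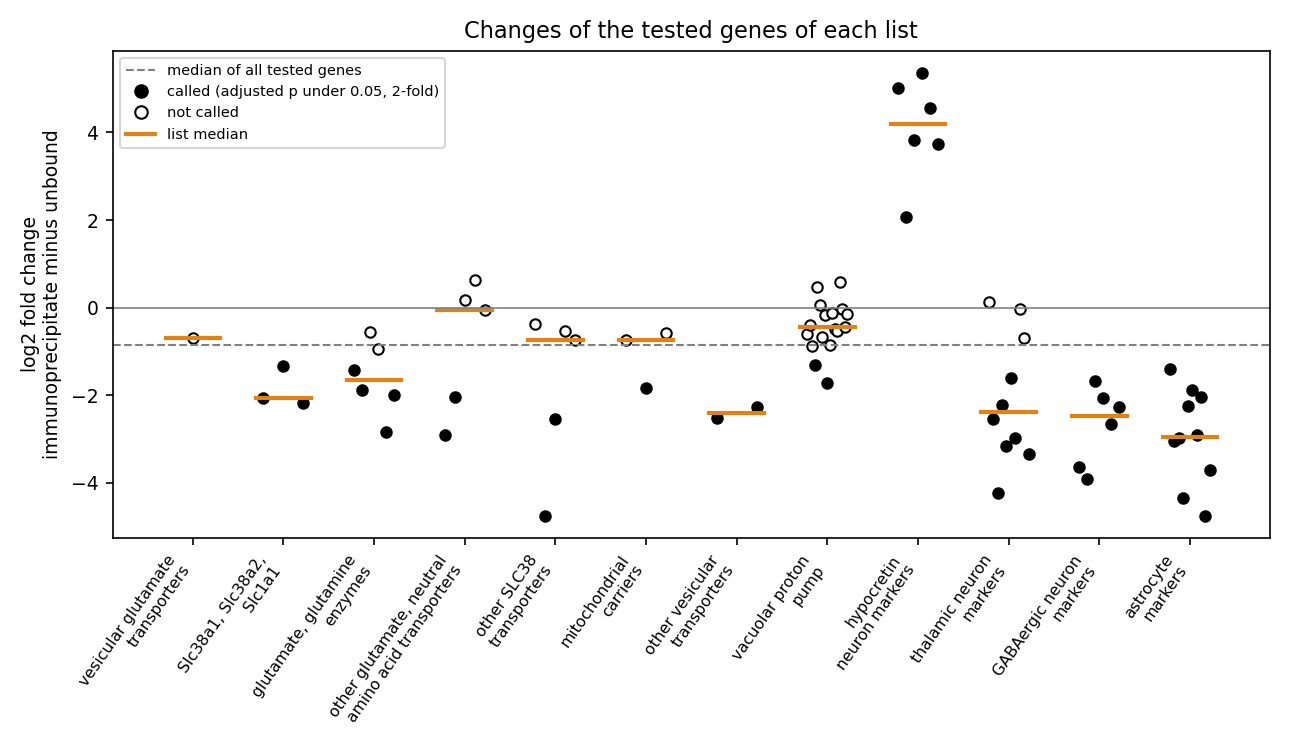
Log2 fold change (vertical axis, immunoprecipitate minus unbound) of each tested gene of 12 lists (horizontal axis), filled where called, with an orange bar at the list median and a dashed line at the median of all tested genes. The 3 uptake carriers lie below the median of all genes, Slc38a1 the closest to it. Slc17a6 lies near that median, and the 6 hypocretin neuron markers lie between 2.08 and 5.36.

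Markers of the cells the tissue holds were read on the same arrays. All 6 hypocretin neuron markers, listed with earlier results of these samples known and so no independent evidence, rose (5 with poly-A spikes), with a mean level of 12.02 to 12.77 in the precipitates and 8.24 to 8.50 in the unbound fractions. Of 10 thalamic neuron markers, a list that includes Slc17a6, 7 fell and 0 rose (8 and 0 at an unadjusted limma p under 0.05). Without Slc17a6 the other 9 averaged 7.43 to 9.18 in the precipitates and 10.31 to 11.17 in the unbound fractions. Tcf7l2, a transcription factor of thalamic neurons, fell 10.2-fold. Calb2 and Rorb, named after their values were seen, gave 0.13 and -0.04 and were not called (limma adjusted p = 0.70 and 0.91). All 6 GABAergic markers fell (7.56 to 8.66 against 10.57 to 11.24), as did all 3 of melanin-concentrating hormone neurons, which also use Slc17a6 (8.15 to 9.56 against 10.96 to 11.47). Pmch, the hormone's gene, fell 8.47-fold. All 10 astrocyte markers fell, 4 of which (Glul, Slc1a2, Slc1a3 and Slc38a3) are also in the glutamate lists (6.47 to 7.94 against 9.95 to 10.22). Among glial and vascular lists, all 6 tested markers of oligodendrocytes (10.05 to 11.41 against 12.88 to 13.20), all 5 tested of microglia and all 3 tested of endothelial and mural cells fell. Over all 6 genes with a probe set, tested or not, the microglial mean level was 4.89 to 6.76 against 8.06 to 8.95. The vascular one was 3.42 to 4.33 against 4.95 to 5.16, under the linear value 50 (5.64) in both fractions. Of these lists, 7 of 10 astrocyte, 6 of 6 oligodendrocyte, 3 of 6 microglial and 1 of 6 vascular markers with a probe set were at or above 50 in every precipitate. The counts of markers called lower depended on the scale. Over all genes 44.2% were called lower on the hybridisation controls, 22.2% after median centring, 20.5% after quantile normalization and 94.5% with poly-A spikes. Median centring called lower 6 of 10 thalamic, 5 of 6 GABAergic, 9 of 10 astrocyte, 3 of 6 oligodendrocyte, 4 of 5 microglial and 2 of 3 vascular markers. Quantile normalization called lower 5, 6, 8, 5, 3 and 2 of them in the same order, and poly-A spikes all of them. Of the 3 melanin-concentrating hormone neuron markers, median centring and poly-A spikes called 3 lower and quantile normalization 2. On each of these scales 0 genes of these lists were higher. Whether RNA of these cells adds to the precipitates' signal for the transporters was not tested.

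The genes whose values ran most like those of a member were found by the root mean square difference between their log2 values over the 8 arrays, each gene's own mean removed. For Slc17a6 these were Osbpl1a (0.12) and the splicing factor Sfpq (0.13), with changes of -0.71 and -0.74. Slc38a1 was closest to Atxn7l3b (0.08) and Prelid3a (0.08), with -1.23 and -1.32. For Slc38a2 they were the integrin Itga6 (0.10) and the potassium channel Kcnd2 (0.11), with -2.17 and -2.23, and for Slc1a1 the phosphatase Ppm1h (0.12) and the methyltransferase Prmt8 (0.15), with -1.96 and -2.04. With a pair of groups this likeness rests mostly on a like difference between the fractions.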

How the data were processed

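RNA of 4 immunoprecipitates and 4 unbound fractions was amplified in 2 cycles and hybridised to 1 Affymetrix mouse array each, per the labels' protocols. The authors deposited 1 log2 value per probe set and array, made with GCRMA per the submitters' processing notes (version not given in the sources used here) and normalized within each group, per the design text. That the scale is log2 was read from the values, with minima of 2.21 (immunoprecipitate) and 2.14 (unbound). To join the groups, each was shifted by 1 constant that made the means of 18 biotinylated hybridisation controls equal. As deposited, those means differed by 0.02. The 64 control probe sets were left out. Probe sets that reached 50 (linear) on 4 or more arrays entered a linear model (lmFit and eBayes with a trend, from limma 3.58.1 under R 4.3.3, no block, all 8 arrays, Benjamini-Hochberg over 17865 probe sets) and called at an adjusted p under 0.05 and 2-fold. The adjusted p-values in the text are limma's unless called exact. A gene is represented by its tested probe set with the highest mean. The platform annotation gave 34945 probe sets 1 symbol and 932 several. Where a group lay under 50 on an array, 50 stood in for the dimmer group and the fold is "at least". Precision is limited by the number of arrays.

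Members and lists were chosen with earlier results of these data known. The text names every member probe set, Hcrt, in each list up to 4 called genes, by size of change (or up to 2 with the highest mean where fewer than 2 were called) and the 2 genes most like each tested member; others are marked. Tests of probe sets of 1 gene against each other were added after seeing the data. Promoter sequences came from a RefSeq table of GRCm38.p6. The fit was tested on simulated data.

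The sample titles number the fractions of each group, and fractions with the same number were taken as 1 preparation. Same-numbered arrays deviated together from their group means, with correlations of 0.44, 0.33, 0.25 and 0.59 across probe sets, though replicate 3 correlated as well (0.26) with another number. Alternatives were other scales, filters, thresholds and variance models, the replicate block, averaging the probe sets of a gene, and leaving out arrays. Nothing in the sources says how the pools were drawn, so p-values measure the spread between these preparations. Figures used matplotlib 3.10.9 (Python 3.11.15).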

Additional observations from a re-analysis of the deposited data

Results flagged for a closer look

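Of 38 groups of 4 values examined for a sample far from the others, 1 stood out: Slc38a2 probe set 1429594_at in unbound replicate 1, at 5.86 on the log2 scale against 4.86 to 5.02 in the other unbound fractions. It was the 1 array on which this probe set passed the linear value 50. Chance flags about 1 in 20 such groups.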

How the results depend on the processing

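The brighter Slc38a2 and Slc1a1 probe sets were called lower under every alternative run. Scale mattered most. With poly-A controls 8 member probe sets were lower and the whole array had 125 higher and 16823 lower. Median centring gave 3 members lower, and 3150 and 4228 over the array, and quantile normalization gave 2, 3091 and 3715. At 4-fold these counts were 3, 257 and 3714. No filter gave 1402 higher, and no fold threshold 1489. The brighter Slc17a6 probe set (-0.69) was -2.66 on poly-A controls, 0.12 after median centring, and called at -0.69 with no fold threshold. The brighter Slc38a1 probe set (-1.32) lost its call after median centring (-0.51), after quantile normalization (-0.87) and at 4-fold (-1.32). Slc1a1 1425415_a_at lost its call after median centring (-0.80), after quantile normalization (-0.52) and at 4-fold, and Slc38a2 1429593_at after quantile normalization (-0.88). The dimmer Slc38a1 probe set turned to 0.041 and 0.12 after median centring and quantile normalization, and the dimmer Slc17a6 one to -1.96 on poly-A controls. The causes were not tested beyond what each scale or threshold does by construction.

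Leaving out arrays gave -0.99 to -0.33 for the brighter and -0.66 to 0.78 for the dimmer Slc17a6 probe set, with 5 to 6 members lower and 0 higher. Without unbound replicate 3 the dimmer Slc38a1 probe set gave -1.06 and was called (limma adjusted p = 0.029). With the replicate block the brighter Slc17a6 probe set stayed at -0.69 (limma adjusted p = 0.0011), 5 members were lower, and the array had 931 higher and 8192 lower, so no member's call changed. In the pairs of members, exact permutation tests over 4 paired preparations cannot go below p = 0.12, and those of 3 arrays against 3 not below 0.10. Among the 6 shifts the 1 that changed direction was Slc38a2 minus Slc1a1, at 0.07 without replicate 2.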
